A study of Sus scrofa with 8 samples.

Results

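Resident fibroblasts make and maintain the collagen scaffold of the heart. In the unstressed ventricle they carry a set of surface and nuclear markers, such as the growth factor receptor PDGFRA and the transcription factor TCF21. A sparse population around vessels carries markers of adventitial fibroblasts, such as PI16. When the wall is injured or loaded, signals that include TGF-beta and stretch can switch fibroblasts to an activated state, in which they secrete matricellular proteins such as periostin (POSTN).

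The 10 genes described here are markers of these 2 states. The 6 resting and identity markers are PI16, SCARA5, ABCA8, PDGFRA, TCF21 and THY1, and the 4 activated state markers are POSTN, CILP, CTHRC1 and MEOX1. Each symbol was matched to the authors' comparison table, 9 by the pig gene name and SCARA5 by its one-to-one human name, and from there to a gene model in the count table. All 10 were found, among 31908 gene models, and all 10 passed the filter on low counts, as did 13697 models in total.

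The data are bulk RNA sequencing of right ventricular free wall from 8 Yorkshire Cross pigs, with 1 library for each animal. The 4 banded animals were castrated male piglets, 4.5 ± 0.6 weeks old and 6.4 ± 1.3 kg at surgery, when a tape was tied around the main pulmonary artery until peak right ventricular pressure reached about 30 to 40 mmHg. The 4 controls were of similar age and weight, were housed for 8 weeks and had the treatment label None. For controls neither sex nor a sham operation is labelled, and the labels do not give the time from banding to collection. An effect of surgery itself, of sex, of any difference in age at collection or of a batch cannot be told apart from one of banding.

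Libraries held 31033679 to 34183338 counts, and the 10 genes had between 112 (CTHRC1) and 14680 (POSTN) counts in a library. Banded 3 stood apart. Its Spearman correlation with the other libraries across tested genes was 0.9551 to 0.9612 within its group and 0.9369 to 0.9465 with controls, while the other 3 banded libraries reached 0.9561 to 0.9659 with controls. Transcripts of the mitochondrial genome took 30.52% of its counts, against 35.92% to 39.67% in the other banded libraries. Control 4 was the least like its group (0.9751 to 0.9798) and had the highest mitochondrial share (43.93%). Ventricular muscle genes were abundant in every library (MYL2 at 7650 to 20400 CPM and TNNT2 at 6600 to 10200 CPM), while TNNI3, another cardiomyocyte marker, was at 2.44 to 20.6 CPM. CPM is the count scaled to a common effective library size by TMM (trimmed mean of M values). MYL2 itself was higher in banded animals (9260 ± 1350 and 17500 ± 2540 CPM, edgeR adjusted p = 0.0113). The other muscle genes did not share 1 direction. Log2 fold changes of banded over control were positive for ACTN2 (0.60) and TNNT2 (0.26). They were negative for MYL3 (-0.19), MYBPC3 (-0.33), RYR2 (-0.74) and TNNI3 (-1.25). Among these, edgeR adjusted p ran from 0.0585 (ACTN2) to 0.575 (MYL3). The median over the 5 cardiomyocyte markers, which leave out MYL2 and MYL3, was -0.33.

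The comparison asked how the right ventricle of banded pigs differs from that of controls. Of the 10 genes 7 changed at an adjusted p under 0.05 in edgeR's quasi-likelihood test, 4 higher and 3 lower in banded animals. Over all genes tested, 6.97% were called, 3.47% higher and 3.50% lower. The 10 genes, and the gene lists below, were chosen with earlier results of these data known. Their shares beside those of all genes are thus descriptions and no independent test. The banded and control libraries did not overlap for the same 7 genes, beside 15.9% of all genes tested (7.66% higher and 8.20% lower). The resting and identity markers did not move as a block. Among the resting and identity markers PI16 and THY1 rose, SCARA5, ABCA8 and PDGFRA fell, and TCF21 did not pass. Among the activated markers CILP and CTHRC1 rose, POSTN and MEOX1 did not pass, and 0 were called lower. The median log2 fold change of banded over control was -0.36 for the 6 resting and identity markers and 0.95 for the 4 activated markers, beside 0.02 over all genes tested. Without banded 3 the counts were 4 higher and 4 lower. In bulk tissue, more or fewer cells of a type and more or less RNA per cell cannot be told apart.

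**Figure D1:**
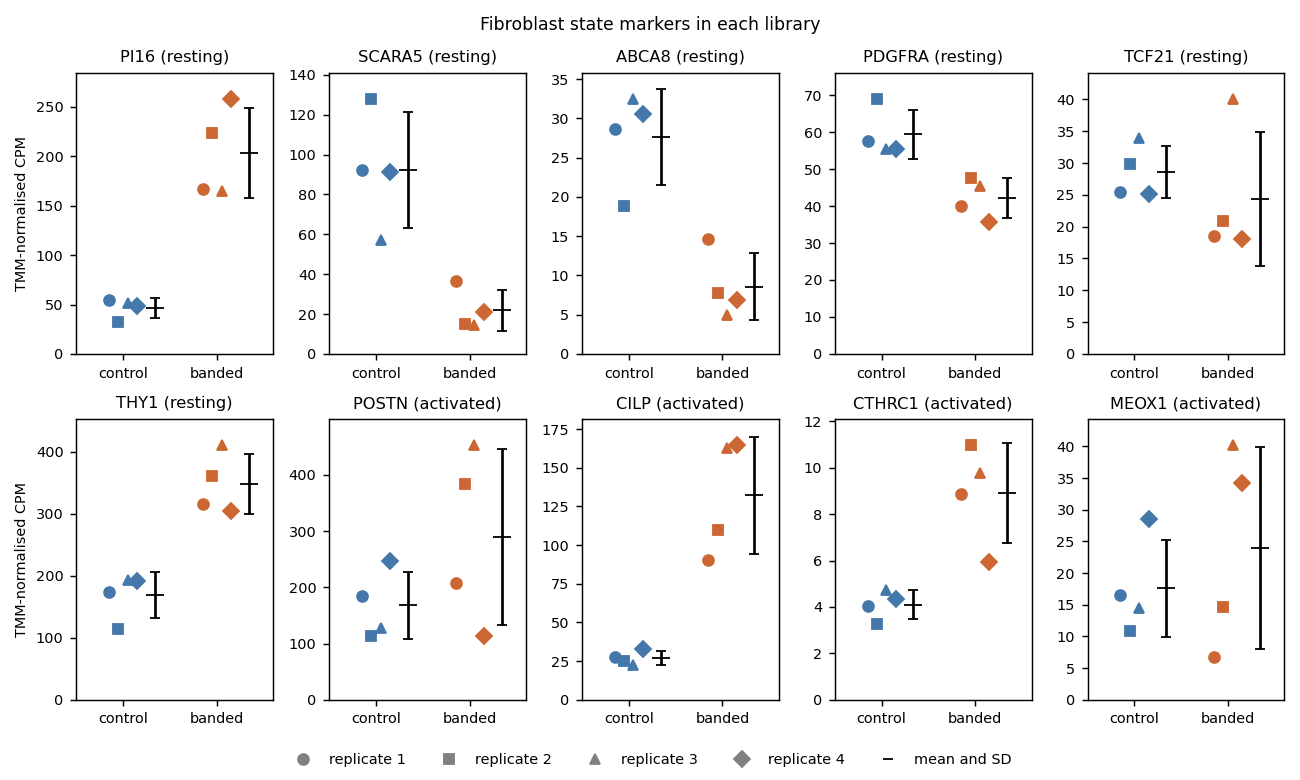
TMM-normalised CPM (y axis, linear from 0, a scale of its own for each gene) of the 10 genes in 4 control (blue) and 4 banded (orange) libraries, with the mean and SD of each group in black. Points of the groups are apart for 7 genes and overlap for TCF21, POSTN and MEOX1, where banded libraries spread from 18.0 to 40.1, 114 to 454 and 6.70 to 40.3 CPM.

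PI16 encodes a secreted peptidase inhibitor and marks adventitial fibroblasts (chromosome 7, 32600759 to 32614965, plus strand, Sscrofa11.1). It was at 54.5, 32.2, 51.9 and 48.0 CPM in controls 1 to 4 and at 167, 223, 165 and 258 CPM in banded 1 to 4. All banded libraries were far above all controls. The rise was 4.36-fold (log2 fold change 2.13 ± 0.21, SE, n = 4 per group, edgeR adjusted p = 0.000315), and its call held in all 16 alternative analyses.

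SCARA5, a scavenger receptor that binds ferritin (chromosome 14, 11615635 to 11747284, minus strand), went the opposite way. Controls held 92.5, 128, 57.2 and 91.2 CPM, and banded libraries held 36.8, 15.0, 14.5 and 21.1 CPM. The groups did not overlap, although banded 1 kept more than the other banded libraries. SCARA5 fell 4.23-fold (log2 fold change -2.08 ± 0.35, edgeR adjusted p = 0.0101). The call held in all 16 alternatives, with a log2 fold change of -2.45 to -1.88 when any 1 library was left out. The RefSeq annotation of the same build places a second gene, LOC110256888, within the span of SCARA5, so its reads may be part of this value.

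ABCA8, a membrane transporter of the ABC family and a marker of cardiac fibroblasts (chromosome 12, 11373238 to 11447296, plus strand), fell beside SCARA5. Control values were 28.6, 18.8, 32.5 and 30.6 CPM, and banded values were 14.7, 7.79, 5.01 and 6.81 CPM. Banded 1 was again the highest of its group and lay below every control. The fall was 3.21-fold (log2 fold change -1.68 ± 0.32, edgeR adjusted p = 0.0139) and its call held in all 16 alternatives. RefSeq names this locus LOC100520512, and ABCA6 and ABCA9, which are related in sequence, lie next to it, so some reads may have been assigned to a neighbour or left out as ambiguous.

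Banded 1, which kept the most SCARA5 and ABCA8 among banded libraries, also stood apart in adipocyte markers. Their summed level was 292 CPM in banded 1, up to 32.2 CPM in controls and 3.71 CPM in the lowest banded library. ADIPOQ, the fat-cell hormone adiponectin, was at 199 CPM there and at 2.60 to 23.5 CPM in the other libraries. Without banded 1 the log2 fold change of SCARA5 was -2.45 and that of ABCA8 was -2.08. The part of adipose tissue in these values was not tested.

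PDGFRA, the platelet-derived growth factor receptor alpha that marks cardiac fibroblasts as a lineage (chromosome 8, 40967493 to 41021442, plus strand), was at 57.7, 69.0, 55.4 and 55.3 CPM in controls. In banded animals it was at 40.1, 47.7, 45.3 and 35.7 CPM. All banded libraries were below all controls, by a small margin. The fall was 1.41-fold (log2 fold change -0.49 ± 0.13) with an edgeR adjusted p of 0.048. That call is close to the threshold: it was lost in 9 of 16 alternatives, with adjusted p of 0.0648 to 0.151 without control 1, 2, 3 or 4, 0.099 without banded 1 and 0.0869 without banded 4. The direction was the same in all 16.

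TCF21, a transcription factor of fibroblast and epicardial lineages (chromosome 1, 29973380 to 29978255, minus strand), did not pass. Controls were at 25.4, 29.8, 33.9 and 25.2 CPM, and banded 1 to 4 were at 18.6, 20.9, 40.1 and 18.0 CPM. Banded 1, 2 and 4 were below every control and banded 3 was above every control. The log2 fold change was -0.23 ± 0.25 (edgeR adjusted p = 0.627). Without banded 3 it was -0.58 ± 0.15 with an adjusted p of 0.039, so this single library decides whether TCF21 is called lower.

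THY1, the surface glycoprotein CD90 that is found on fibroblasts and on other cell types (chromosome 9, 46607494 to 46612269, minus strand), was at 174, 115, 194 and 192 CPM in controls. Banded libraries held 316, 361, 412 and 304 CPM. The spread within the banded group was narrow, with an SD of 48.9 around a mean of 348 CPM. THY1 rose 2.06-fold (log2 fold change 1.05 ± 0.18, edgeR adjusted p = 0.00809), a call that held in all 16 alternatives. Markers of pericytes and smooth muscle, which can also carry THY1, summed to 687 to 927 CPM in controls and 595 to 1810 CPM in banded animals. The upper end was banded 3, where CNN1 alone held 1350 CPM. CNN1 was higher in every banded library (349, 273, 1350 and 156 CPM) than in any control (61.7 to 116 CPM). PDGFRB, a defining pericyte receptor, was at 77.0 ± 8.98 and 57.5 ± 18.7 CPM. Of the 8 markers, 2 had a positive log2 fold change, and the median was -0.44. In edgeR 0 of these 8 markers were called (5 at an unadjusted p under 0.05). DESeq2 called 4 (RGS5, ABCC9 and MYH11 lower, CNN1 higher) and limma-voom 1 (CNN1). The part of these cells in the rise of THY1 was not tested.

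**Figure D2:**
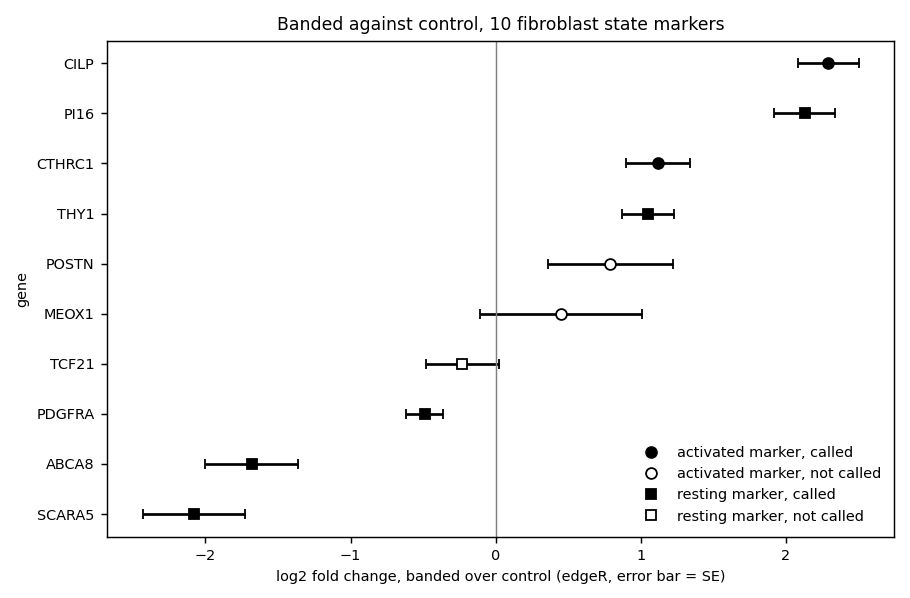
Log2 fold change of banded over control (x axis) with its SE for each of the 10 genes (y axis), from edgeR on all 8 libraries, with circles for activated and squares for resting and identity markers, filled where the adjusted p was under 0.05. CILP (2.29) and PI16 (2.13) were at the top and SCARA5 (-2.08) and ABCA8 (-1.68) at the bottom, so resting and identity markers stood at both ends.

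CILP encodes a matrix protein of cartilage that fibroblasts of the stressed heart also secrete (chromosome 1, 163237100 to 163271164, minus strand). It was at 27.9, 25.0, 22.5 and 32.7 CPM in controls and at 90.6, 110, 163 and 165 CPM in banded animals. The 4 banded libraries were all far above the controls, with banded 3 and 4 the highest. CILP rose 4.89-fold (log2 fold change 2.29 ± 0.21, edgeR adjusted p = 0.000249), the largest fold of the 10 genes in this fit, and its call held in all 16 alternatives.

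Markers of tendon, valve and cartilage moved with CILP in part. Their summed level was 1.26 to 3.36 CPM in controls and 5.65 to 23.2 CPM in banded libraries. CHAD, a cartilage matrix protein gene, made up most of it: 1.79, 2.81, 2.56 and 0.628 CPM in controls and 5.18, 20.4, 5.07 and 15.3 CPM in banded libraries (edgeR adjusted p = 0.0372), a call lost in 8 of 16 alternatives. The defining markers TNMD, SCX and COL2A1 were at 0 to 0.278 CPM throughout. ACAN, the cartilage proteoglycan aggrecan, was at 1.82 CPM in banded 2 and at most 0.176 CPM elsewhere. CILP was higher in banded 3 and 4 than in banded 2, where CHAD and ACAN peaked. Banded 4 had the most CILP (165 CPM) and, after banded 2, the most CHAD. For MKX, the other tested marker of this list, banded 2, 3 and 4 (0.825, 0.68 and 1.18 CPM) exceeded every control. MKX in banded 1 (0.347 CPM) lay within the control range, and the gene did not pass (edgeR adjusted p = 0.303). Whether such tissue adds to the CILP values was not tested.

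CTHRC1, a secreted glycoprotein of activated fibroblasts (chromosome 4, 33759542 to 33771582, minus strand), was the least abundant of the 10 in controls. Control libraries held 4.05, 3.25, 4.75 and 4.36 CPM, and banded libraries held 8.87, 11.0, 9.77 and 5.94 CPM. All 4 banded values were above all controls, with banded 4 closest to them. The rise was 2.17-fold (log2 fold change 1.12 ± 0.22, edgeR adjusted p = 0.0142). Its call was lost without control 1 or control 2 (adjusted p of 0.05, just above the threshold before rounding, and 0.0524).

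POSTN encodes periostin, a matricellular protein that marks activated fibroblasts (chromosome 11, 13182272 to 13259019, minus strand). Controls were at 184, 114, 127 and 246 CPM, and banded libraries were at 208, 383, 454 and 114 CPM. Banded 2 and 3 exceeded every control, banded 1 was within the control range, and banded 4 was level with the lowest control. The log2 fold change of 0.79 ± 0.43 did not pass (edgeR adjusted p = 0.313), and it did not pass in any of the 16 alternatives (adjusted p of 0.0875 to 0.57). Without banded 4 it was 1.06 (adjusted p = 0.0875), and without banded 3 it was 0.49. The RefSeq annotation also places LOC102166397 within the span of POSTN.

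MEOX1, a homeobox transcription factor that is induced in stressed cardiac fibroblasts (chromosome 12, 19431029 to 19452007, plus strand), varied the most of the 10 within both groups. Control values were 16.6, 10.8, 14.5 and 28.5 CPM, and banded values were 6.70, 14.6, 40.3 and 34.3 CPM. Banded 1 was below every control, banded 2 was within their range, and banded 3 and 4 were above them all. The log2 fold change was 0.45 ± 0.56 (edgeR adjusted p = 0.688). It was 0.07 without banded 3, 0.76 without banded 1 and 0.78 without control 4, and limma-voom with quality weights turned its sign (-0.08), so no direction can be given.

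**Figure D3:**
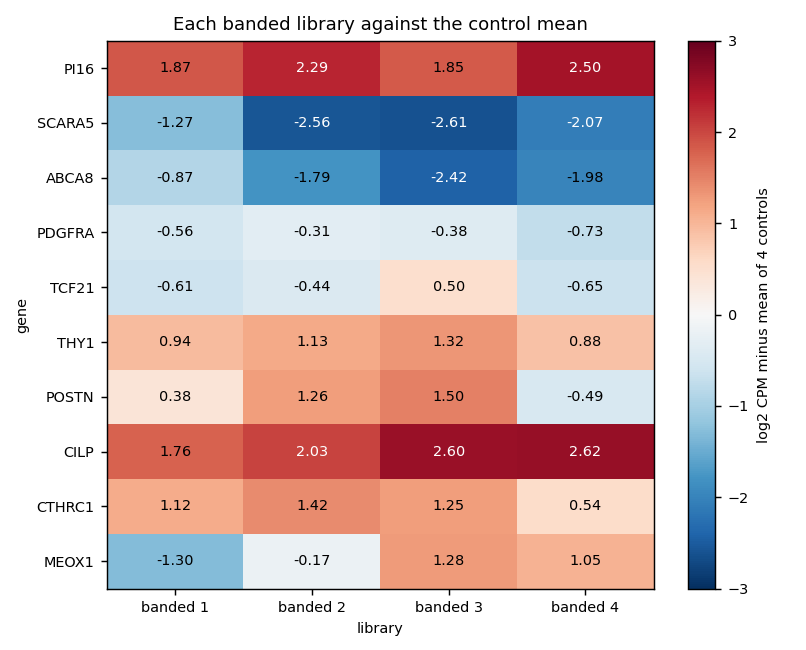
Log2 CPM (prior count 2) of each gene (rows) in each banded library (columns) minus the mean of the 4 controls, in red where higher and in blue where lower. PI16, THY1, CILP and CTHRC1 were higher and SCARA5, ABCA8 and PDGFRA lower in all 4 columns, while TCF21, POSTN and MEOX1 changed sign between columns.

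The banded animals did not share 1 order across the activated markers. Banded 4 had the most CILP and the least POSTN and CTHRC1 of its group. Banded 1 had the least CILP and MEOX1. In log2 CPM relative to the control mean, banded 4 was at 2.62 for CILP and -0.49 for POSTN, and banded 2 was at 2.03 for CILP and -0.17 for MEOX1. In banded 1, 2 and 3 CILP and POSTN stood in the same order, and banded 4 departed from it.

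Levels of different genes were compared per length, as CPM per kb of gene model. In controls THY1 was the most abundant (78.4 ± 17.3 CPM per kb), followed by SCARA5 (29.8 ± 9.41), POSTN (20.7 ± 7.42), TCF21 (15.8 ± 2.29), PI16 (13.3 ± 2.86), PDGFRA (8.91 ± 0.982), MEOX1 (5.71 ± 2.48), CILP (5.22 ± 0.846), ABCA8 (4.19 ± 0.922) and CTHRC1 (2.81 ± 0.437). Apart from THY1 and SCARA5, neighbours in this order overlapped between libraries, so their places are not resolved. In banded animals the order was THY1 (162 ± 22.7 CPM per kb), PI16 (58.2 ± 13.0), POSTN (35.8 ± 19.3), CILP (25.5 ± 7.29), TCF21 (13.5 ± 5.82), MEOX1 (7.78 ± 5.15), SCARA5 (7.06 ± 3.36), PDGFRA (6.34 ± 0.807), CTHRC1 (6.10 ± 1.47) and ABCA8 (1.30 ± 0.647). There THY1 was clear of PI16 and CTHRC1 was clear of ABCA8, and the other neighbours overlapped. PI16 moved from place 5 to place 2 and SCARA5 from place 2 to place 7.

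The make-up of the 10 markers shifted accordingly. SCARA5 made up 10.1% to 26.2% of their summed CPM per kb in controls and 1.23% to 4.30% in banded libraries. PI16 made up 5.82% to 8.22% and 12.4% to 24.7%, and CILP 2.37% to 3.05% and 6.29% to 10.7%. These ranges did not overlap. TCF21 also made up a smaller part in every banded library (3.33% to 5.83% against 6.68% to 10.4%), banded 3 included. TCF21 itself was at 10.3, 11.5 and 9.97 CPM per kb in banded 1, 2 and 4, below the control range of 13.9 to 18.7, and at 22.2 CPM per kb in banded 3, above it. The sum of the 10 genes was larger in every banded library (277 to 380 against 158 to 208 CPM per kb). Within the pair of adventitial and scavenger receptor markers, the ratio of PI16 to SCARA5 per kb was 0.222 to 0.804 in controls and 4.03 to 13.2 in banded libraries. The summed activated markers over the summed resting and identity markers gave 0.181 to 0.307 in controls and 0.229 to 0.393 in banded libraries, which overlap. Without POSTN the ratio was 0.0792 to 0.116 and 0.115 to 0.198, which overlap only at the edge. THY1 alone held 78.4 of the mean resting sum of 150 CPM per kb in controls and 162 of 248 in banded libraries. SCARA5, which fell, held 29.8 of that mean sum in controls and 7.06 in banded libraries. The ratio thus weights each gene by its level, and THY1 weighs most among the resting and identity markers. These ratios are given as descriptions, with no test.

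**Figure D4:**
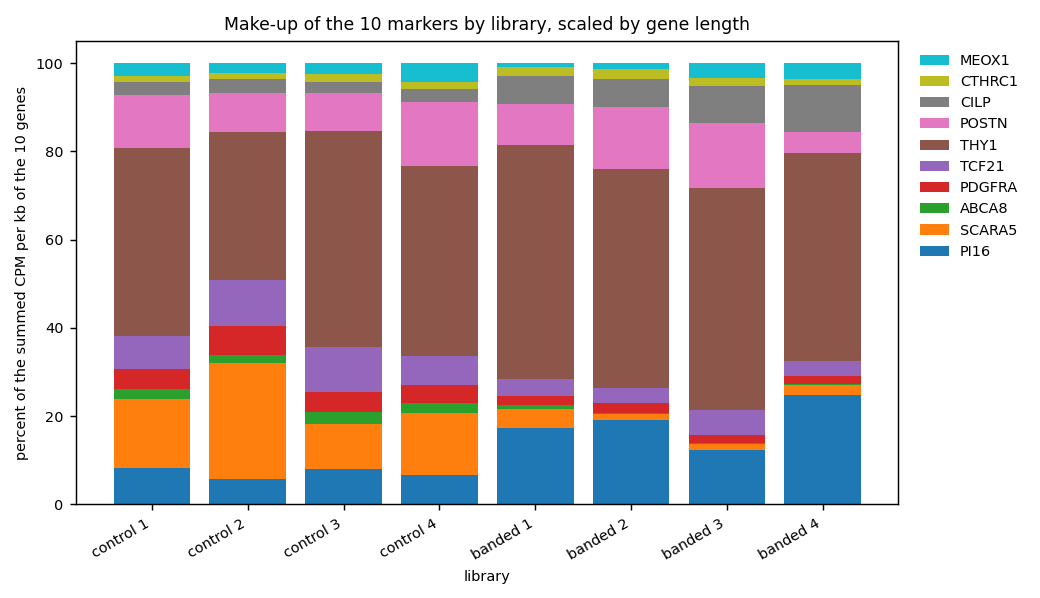
Share of each gene (colours) in the summed CPM per kb of the 10 genes (y axis, percent) in each library (x axis). The SCARA5 band shrinks from 10.1% to 26.2% in controls to 1.23% to 4.30% in banded libraries and the PI16 band widens, while THY1 takes 33.6% to 53.1% in every library.

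The authors' deposited table gives its own comparison of these genes, as control over banded, and its signs are turned here to banded over control. Of the 10 genes, 8 in the authors' deposited table had an adjusted p under 0.05, 4 higher and 4 lower in banded animals, beside 10.6% of all genes with an adjusted p. TCF21 was the gene called there and not above, at -0.58 ± 0.17 (SE) in the authors' deposited table. MEOX1 was at 0.07 and POSTN at 0.49 in the authors' deposited table, against 0.45 and 0.79 in the fit of 8 libraries. A DESeq2 fit of the deposited counts without banded 3 gave log2 fold changes within 0.01 of the authors' deposited table for 100% of 10296 genes with a mean of at least 100, and within 0.00363 at most. With all 8 libraries 7.30% were within 0.01. The values in the authors' deposited table are therefore those of 4 controls and 3 banded animals, and no source used here gives a reason for leaving out banded 3.

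**Figure D5:**
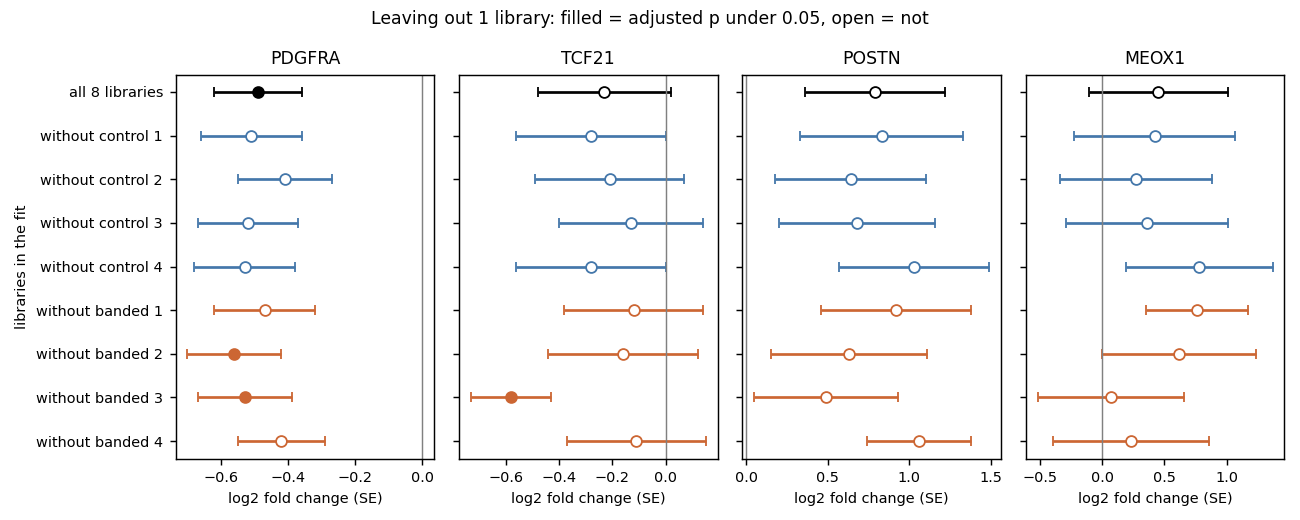
Log2 fold change of banded over control with its SE (x axis, a scale of its own for each gene) for PDGFRA, TCF21, POSTN and MEOX1, with all 8 libraries (black) and with 1 control (blue) or 1 banded library (orange) left out (y axis), filled where the edgeR adjusted p was under 0.05. TCF21 was filled without banded 3 alone (-0.58), and MEOX1 ran from 0.07 without banded 3 to 0.78 without control 4.

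Other genes of resident and resting fibroblasts also moved apart. Of 16 tested genes on a list of 18 without the 10 markers, 2 were called higher and 3 lower. Over all genes tested, 3.47% were called higher and 3.50% lower. The median log2 fold change of the list was -0.14, beside 0.02 over all genes tested. HSD11B1, which activates glucocorticoids, rose from 11.3 ± 1.07 to 19.7 ± 1.85 CPM (edgeR adjusted p = 0.00687), and this call held in all alternatives. FBLN1, a matrix glycoprotein gene, rose from 216 ± 18.2 to 348 ± 68.0 CPM (edgeR adjusted p = 0.0248). CFD, the complement protease adipsin, fell from 161 ± 38.2 to 57.7 ± 26.0 CPM (edgeR adjusted p = 0.0288). COL15A1, a basement membrane collagen gene, fell from 523 ± 43.3 to 290 ± 80.6 CPM (edgeR adjusted p = 0.0297), and CLEC3B, which encodes tetranectin, from 130 ± 15.2 to 89.3 ± 11.3 CPM (edgeR adjusted p = 0.0401). Of these 5, only HSD11B1 remained called without control 1, 2 or 3, and CLEC3B lost its call without any 1 library. The most abundant member, the actin-severing gene GSN, was at 2560 ± 623 and 1530 ± 392 CPM (edgeR adjusted p = 0.0716).

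On a list of 25 further genes of activated fibroblasts and myofibroblasts, 6 of 24 tested were called, all higher, beside 3.47% of all genes tested. The median log2 fold change of the list was 0.64, beside 0.02 over all genes tested. THBS4, a thrombospondin of stressed muscle and matrix, rose from 116 ± 26.6 to 443 ± 89.5 CPM (edgeR adjusted p = 0.000482). LTBP2, which binds elastic microfibrils, rose from 19.0 ± 6.68 to 76.8 ± 6.37 CPM (edgeR adjusted p = 0.000669). The collagen gene COL8A1, FN1 (fibronectin), FSTL1 (a follistatin-like glycoprotein) and ASPN (asporin, a small proteoglycan) were also called. FN1 lost its call without any 1 control, and FSTL1 and ASPN lost theirs without control 1 or control 2. ACTA2, the smooth muscle actin that defines myofibroblasts, was at 135 ± 24.0 and 99.6 ± 28.8 CPM (edgeR adjusted p = 0.230), and the most abundant member, COL3A1, was at 5880 ± 813 and 4970 ± 1240 CPM. DESeq2 called 8 genes of this list and limma-voom 7, with TNC (tenascin C) among both. TNC was at 3.37 to 9.60 CPM in controls and at 11.4, 38.6, 113 and 16.0 CPM in banded libraries (edgeR adjusted p = 0.0837). As with POSTN, some members that edgeR did not call were uneven among the banded animals. CCN2, a target of TGF-beta and stretch signals, was at 101, 607 and 273 CPM in banded 2, 3 and 4, above every control. In banded 1 it was at 52.9 CPM, below every control. DESeq2 called CCN2 higher. FMOD, the proteoglycan fibromodulin, was at 176 CPM in banded 2 and at 30.7 to 66.3 CPM in the other banded libraries.

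Among 17 tested regulators of fibroblast activation (ligands and receptors of TGF-beta, SMADs and stretch-responsive factors), edgeR called 0 (4 at an unadjusted p under 0.05), DESeq2 called 2 and limma-voom called 1. Over all genes tested, edgeR called 6.97%, so with 17 genes a count of 0 is close to that share. The median log2 fold change of the regulators was -0.12, beside 0.02 over all genes tested. TGFB1 was at 43.1 ± 3.89 and 43.1 ± 12.5 CPM, and the most abundant member, the receptor gene TGFBR2, at 164 ± 9.19 and 161 ± 43.0 CPM. DESeq2 called TGFB2, a ligand, and SRF, a transcription factor of the actin program. Control libraries held 6.83 ± 1.61 CPM of TGFB2 and banded ones 14.9 ± 8.60 CPM, with 27.7 CPM in banded 3 (edgeR adjusted p = 0.081), and SRF at 69.4 ± 6.99 and 45.7 ± 12.7 CPM (edgeR adjusted p = 0.0769). IL11, a fibrogenic cytokine gene, was at most 0.309 CPM and was not tested.

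Markers of other cell types that could shift beside the 10 genes were measured in the same libraries. Macrophage markers (6) summed to 332 to 538 CPM in controls and 540 to 1020 CPM in banded animals, and endothelial markers (5) to 594 to 692 and 528 to 672 CPM. In edgeR 0 of the 6 macrophage markers were called (4 at an unadjusted p under 0.05, 3 called by DESeq2 and 3 by limma-voom). All 6 had a positive log2 fold change, with a median of 0.61 beside 0.02 over all genes tested. Of the 5 endothelial markers 0 were called (1 at an unadjusted p under 0.05, 1 by DESeq2 and 0 by limma-voom). Their median log2 fold change was -0.25, and 1 of the 5 was positive. Of 5 cell-cycle markers edgeR called CDK1, higher in banded animals (adjusted p = 0.0478, lost in 9 of 16 alternatives). All 5 had an unadjusted p under 0.05, and DESeq2 and limma-voom each called 3 (MKI67, TOP2A and CDK1). Their sum was 15.2 to 31.1 CPM in controls and 29.2 to 97.4 CPM in banded animals, highest in banded 3. The summed levels of T cell markers (11.0 to 13.7 and 7.23 to 15.6 CPM), mesothelial and epicardial markers (5.69 to 18.4 and 4.76 to 20.2 CPM) and Schwann cell markers (13.2 to 20.1 and 8.59 to 20.5 CPM) overlapped between the groups, and CD3G was at 0 in every library. The part of these cells in the changes of the 10 genes was not tested.

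The genes with the most similar profiles over the 8 libraries were found by the root-mean-square difference of log2 CPM, each gene centred on its own mean, among 11321 named genes. Of the 45 pairs of members, THY1 and CTHRC1 were the closest (0.19), followed by PDGFRA and TCF21 (0.33) and PI16 and CILP (0.37). Of these 3 pairs, 2 join a resting or identity marker to an activated marker. Profiles span both groups, so closeness largely restates similar log2 fold changes (THY1 1.05 and CTHRC1 1.12, PI16 2.13 and CILP 2.29). It is no separate result about the 2 states. SCARA5 and CILP were the farthest apart (2.28). Outside the 10 genes, PI16 was closest to FGFRL1 (0.26) and SFRP1 (0.28), CILP to HOMER2 (0.24), CTHRC1 to CCDC80 (0.14), SCARA5 to ANGPTL1 (0.37), ABCA8 to CHRDL1 (0.26), TCF21 to SMAD3 (0.12) and POSTN to FANCD2 (0.15).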

How the data were processed

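Counts of read pairs were deposited by the authors as whole numbers per gene, not normalised. Per the file headers they were made with featureCounts 1.6.2 (mapping quality of at least 10, strand setting 2) on Ensembl release 106 of Sscrofa11.1, with 24 libraries named in the command, of which 8 were analysed here. Trimmomatic, HISAT2 and DESeq2 are named per the submitters' processing notes. The authors' deposited comparison table holds a mean normalised signal, a log2 fold change with its standard error, a Wald score, and p-values. Strand-specific counting separates POSTN from 2 gene models on the opposite strand.

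Genes were filtered with filterByExpr (minimum count 10, minimum total 15), scaled by TMM and tested two-sided with the robust quasi-likelihood F test of edgeR 4.0.16 (R 4.3.3), with Benjamini-Hochberg adjustment over 13697 genes and a threshold of 0.05. The SE is the log2 fold change over the square root of F. CPM is mean ± SD over 4 animals. The scripts were tested on simulated data for the same 8 libraries, with 66 or 67 genes changed at each fold. They recovered 8.96% of genes changed 1.5-fold, 46.3% of those changed 2-fold and 83.3% of those changed 4-fold, with 6 false calls. Alternatives were DESeq2 1.42.0, limma-voom (limma 3.58.1), other scalings and filters, and leaving out mitochondrial genes or each library. Of 121 list entries 115 matched a gene model. Members of the fibroblast lists were named where called or most abundant, and cell type markers where they bear on a result or on the tissue label. TNC, CCN2, FMOD, ACTA2, TGFB1, TGFB2, SRF and IL11 were chosen after their values were seen, as were ABCA6 and ABCA9. The members and lists were chosen with earlier results of these data known. Replicates were numbered in accession order. Libraries of a group were no copies of each other (chi-square over degrees of freedom at least 27.54). No motif search was made, as promoter sequences were not used here.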

Additional observations from a re-analysis of the deposited data

Results flagged for a closer look

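TCF21 was at 40.1 CPM in banded 3 and at 18.0 to 20.9 CPM in the other 3 banded libraries, a gap that took up 0.87 of the range of the group. This was the only 1 of 24 groups of 4 libraries examined (the 10 genes, their summed level and the ratio of activated to resting markers, in each group) in which a sample lay this far from the others, and chance marks about 1 group in 20. Banded 3 also had the most THY1, POSTN and MEOX1 of its group and the lowest mitochondrial share.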

How the results depend on the processing

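No paired analysis was possible because the labels give no replicate numbers that the groups share. PI16, SCARA5, ABCA8, THY1 and CILP kept their direction and call in all 16 alternatives, and POSTN stayed uncalled with the same direction in all 16. PDGFRA lost its call in 9, CTHRC1 in 2 and TCF21 gained one without banded 3. The sign of MEOX1 turned in limma-voom (-0.08). Members called ran from 5 to 8 without 1 library (3 to 4 higher and 2 to 4 lower). Over all genes 954 were called (475 higher, 479 lower), DESeq2 called 1710 (877 higher, 833 lower), and the count without 1 library was 399 to 962 (201 to 499 higher, 198 to 476 lower), at 399, 415 and 409 without control 1, 2 or 3. With no TMM factors, 303 genes were higher and 508 lower (37.4% of calls higher, against 49.8%), and the median over all genes went from 0.02 to -0.09 (log2). The resting list ran from 1 to 4 called without 1 library, the activated list from 3 to 8, and the regulators from 0 to 2. The regulators had 2 called in DESeq2, 1 in limma-voom and 1 with library size alone. The cause of these differences was not tested. The fits without 1 library have fewer samples. The lowest count of a member in a library was 112. The part of depth and of the number of animals in these calls was not tested. With 4 animals per group, a gene that did not pass may still differ between the groups.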

Other observations

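ABCA6 and ABCA9, lipid transporter genes next to ABCA8 on chromosome 12, were not on the lists and were looked up after ABCA8 was seen to fall. ABCA6 was at 37.8 ± 4.22 CPM in controls (SD, n = 4) and at 22.2, 16.0, 13.0 and 15.1 CPM in banded libraries. It fell 2.28-fold (log2 fold change -1.19 ± 0.17, edgeR adjusted p = 0.00266). ABCA9 was at 50.1 ± 4.46 and 28.0 ± 6.36 CPM, a fall of 1.79-fold (edgeR adjusted p = 0.0125), and ABCA5, a further member of the cluster, was at 13.2 ± 2.03 and 8.28 ± 2.61 CPM and did not pass (edgeR adjusted p = 0.113). Banded 1 held the most ABCA6, ABCA8 and ABCA9 of its group. Because these genes are related in sequence and neighbours, reads shared between them cannot be separated from the counts.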
